A study of Homo sapiens with 18 samples.

Results

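H19 and 9 other imprinted genes were followed through the response of the human osteosarcoma line U2OS to cytarabine. The members were chosen by name, as the rows of the authors' gene table with the symbols H19, IGF2, CDKN1C, PEG10, SGCE, MEST, MEG3, GRB10, PLAGL1 and PHLDA2. All 10 had a row among the 25296 genes of the table, and 9 of them, all but MEST, passed the filter on low counts together with 18226 genes in all. Total RNA was sequenced from 18 libraries in 6 groups of 3. All groups were derived U2OS lines grown as cultures plated in triplicate. EV carried the empty retroviral vector MigR1, WT overexpressed wild-type DNMT3A, a DNA methyltransferase, and MUT overexpressed mutant DNMT3A, whose mutation is R882H in the sample labels and R882C in the series text. Cultures of each line were harvested untreated or 24 h into treatment with 10 µM cytarabine, an analogue of cytidine that stalls DNA synthesis once incorporated. The series text describes the untreated cultures as a vehicle control. They are listed at 0 h, and whether they were grown for the same 24 h is not known here. Effects of cytarabine and of further culture time therefore cannot be told apart. Nothing in the labels says whether a line was 1 clone or a pool, so differences between lines and differences between the cell populations they were grown from cannot be told apart.

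An imprinted gene is expressed mainly from the copy inherited from 1 parent, because a nearby control region carries DNA methylation on a single parental copy. At the H19 and IGF2 locus, the insulator protein CTCF binds the unmethylated maternal control region, which leaves the shared enhancers to H19, while methylation of the paternal control region frees them for IGF2. Many imprinted genes act on growth, with paternally expressed members such as IGF2 promoting it and maternally expressed members such as CDKN1C and PHLDA2 restraining it. The deposited values sum both parental copies of a gene, so allele-specific expression was not measured.

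The sequences that bear on the RNAs with the largest differences are given first. H19 is the host of a microRNA hairpin whose mature products were not measured in these libraries. Both products lie within the H19 locus, at chr11:1996800-1996822 for the 5p arm and chr11:1996768-1996787 for the 3p arm on the minus strand (RefSeq, GRCh38.p14). They are written 5′ to 3′ with the seed, bases 2 to 8, in capitals, and their seeds differ.
hsa-miR-675-5p: uGGUGCGGagagggcccacagug
hsa-miR-675-3p: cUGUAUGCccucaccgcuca
The promoter windows of the long non-coding members H19 and MEG3 are shown because the treated libraries of EV and WT held more of both RNAs than the untreated ones, without overlap. Each window runs from 250 bases before to 50 bases after a RefSeq transcript start, 5′ to 3′ on the gene's strand, with CG pairs, the sites of DNA methylation, in capitals. The H19 window is chr11:2001217-2001516 on the minus strand and the MEG3 window shown is chr14:100825858-100826157 on the plus strand. Of the overlapping MEG3 windows, the one with the lowest start is shown. It lies downstream of the start of the counted MEG3 gene at 100779410, so it is not shown to be the promoter of the RNA counted.
H19: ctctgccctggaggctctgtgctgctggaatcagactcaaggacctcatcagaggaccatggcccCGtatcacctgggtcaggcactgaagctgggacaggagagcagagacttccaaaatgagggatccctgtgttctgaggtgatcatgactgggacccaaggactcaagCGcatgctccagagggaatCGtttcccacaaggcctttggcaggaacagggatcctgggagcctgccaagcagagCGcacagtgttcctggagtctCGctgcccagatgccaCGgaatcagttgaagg
MEG3: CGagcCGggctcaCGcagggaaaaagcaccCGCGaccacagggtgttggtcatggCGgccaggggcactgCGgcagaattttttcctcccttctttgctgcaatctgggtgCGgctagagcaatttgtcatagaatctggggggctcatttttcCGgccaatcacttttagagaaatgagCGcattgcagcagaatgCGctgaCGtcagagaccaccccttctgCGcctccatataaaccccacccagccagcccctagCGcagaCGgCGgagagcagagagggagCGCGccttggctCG
The H19 window held 6 CG pairs, against a median of 14 over 35116 windows of this length, and 36.8% of windows held as few or fewer. The MEG3 window shown held 19 CG pairs, and 58.8% of windows held as few or fewer. The other MEG3 windows held 17 and 18. RefSeq windows were matched for 5 members, H19, MEST, MEG3, GRB10 and PLAGL1, with 19 windows between them. The windows were placed by transcript start. Whether any of them lies in an imprinting control region was not examined, and DNA methylation was not measured.

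Library totals ran from 15.4 to 21.9 M estimated counts. Levels are given as CPM, counts per M (mega) counts after TMM scaling of the libraries, and levels of different genes are compared per kb of exon only. DNMT3A was at 26.9 ± 0.662 CPM in untreated EV, 133 ± 5.17 in untreated WT and 456 ± 185 in untreated MUT (SD, n = 3). The untreated MUT libraries held 500, 615 and 254 CPM of DNMT3A and varied most among themselves, with a biological coefficient of variation of 0.216 against 0.0397 in untreated EV and untreated WT, and results that rest on 1 of them are given with and without it. The osteoblast-lineage markers RUNX2, ALPL and COL1A1 averaged 44.9, 9.9 and 164 CPM, while the later bone matrix genes SPP1 and BGLAP stayed under 1 CPM on average and SP7 and IBSP had no row in the table. Of the markers of other cell types, PTPRC, PECAM1 and ALB averaged under 1 CPM and CD3E had no row, while the epithelial genes EPCAM and CDH1 averaged 3.07 and 2.03 CPM.

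H19, a maternally expressed long non-coding RNA (chr11:1995176-2001471, minus strand, hg38), rose after cytarabine in every line. In EV it went from 3.21, 3.91 and 2.15 CPM in the untreated libraries to 16.3, 17.7 and 20.8 CPM in the treated ones. In WT the untreated libraries held 2.16, 1.22 and 1.82 CPM and the treated libraries 14.3, 15.2 and 16.3 CPM. In MUT the untreated libraries held 3.41, 5.41 and 3.14 CPM and the treated libraries 15.2, 13.0 and 12.9 CPM. Every treated library lay above every untreated one, with no overlap in any line. The log2 fold change was 2.56 (SE 0.207) in EV, a 5.89-fold rise with an adjusted p of 9.84e-09 (edgeR quasi-likelihood test, n = 3 against 3). It was 3.13 (SE 0.221) in WT, an 8.76-fold rise (edgeR, adjusted p = 1.6e-09). In MUT it was 1.79 (SE 0.200), a 3.46-fold rise (edgeR, adjusted p = 3.77e-07). Among all 18226 tested genes this placed H19 at rank 302 from the top in EV, 144 in WT and 917 in MUT. In bulk RNA, more cells with H19 and more H19 per cell cannot be told apart.

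**Figure D1:**
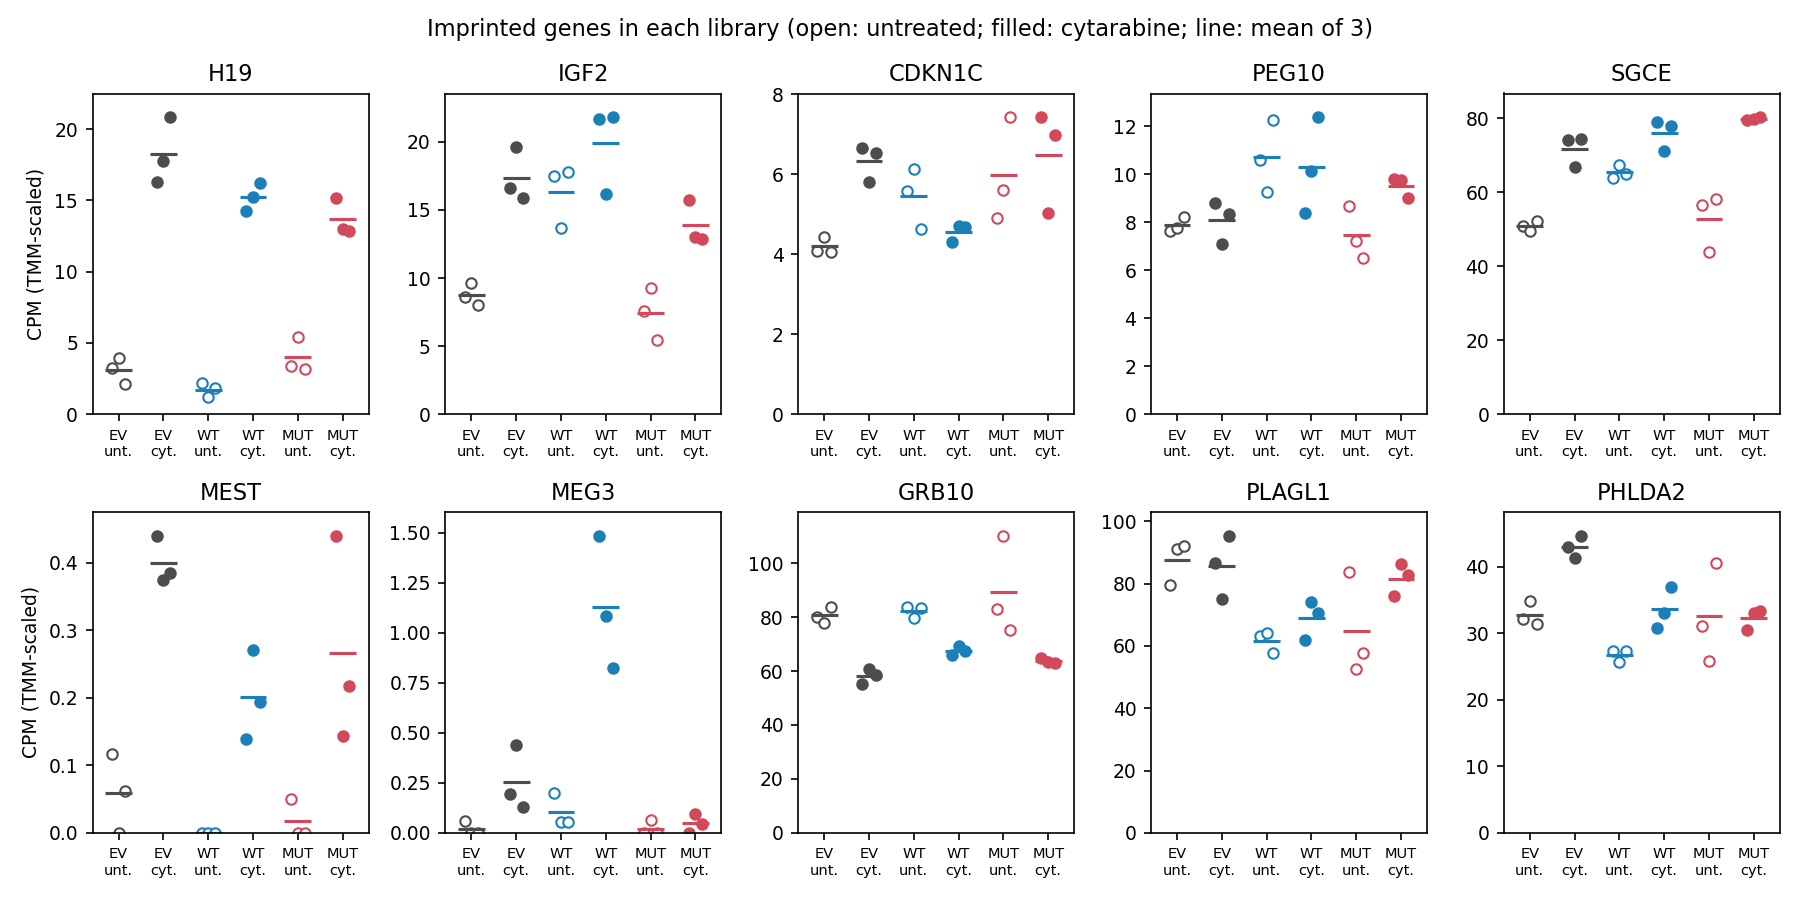
CPM (TMM-scaled) of each of the 10 imprinted genes in the 18 libraries, with 1 panel per gene, the 6 groups on the horizontal axis, open points for untreated and filled points for cytarabine-treated cultures and a line at the mean of 3. The treated H19 points lie between 12.9 and 20.8 CPM and the untreated ones between 1.22 and 5.41 CPM, while MEST and MEG3 stay under 0.5 and 1.5 CPM.

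H19 was called different between WT and each of the other lines before treatment, and between no pair of lines after it. Untreated H19 averaged 1.73 ± 0.476 CPM in WT, 3.09 ± 0.887 in EV and 3.99 ± 1.24 in MUT (SD, n = 3). MUT exceeded WT by 1.18 on the log2 scale (SE 0.244, edgeR adjusted p = 0.00179), with no overlap between the libraries, and the adjusted p was 0.0571 when only the groups compared were fitted. WT lay below EV, at a log2 fold change of -0.83 (SE 0.252, edgeR adjusted p = 0.0365), but the libraries overlapped. That call was lost when untreated EV replicate 1 or 2, or untreated WT replicate 2 or 3, was left out (adjusted p between 0.0817 and 0.195), and with the replicate number as a block (adjusted p = 0.0507). MUT and EV overlapped, at a log2 difference of 0.35 (edgeR adjusted p = 0.307). In treated cells H19 averaged 18.3 ± 2.32 CPM in EV, 15.3 ± 0.979 in WT and 13.7 ± 1.32 in MUT, and no pair of treated lines passed the test (edgeR adjusted p = 0.344 between WT and EV, 0.13 between MUT and EV and 0.587 between MUT and WT). The treated EV libraries lay above those of WT and of MUT without overlap, with WT at a log2 difference of -0.26 from EV and MUT at -0.42, and treated WT and MUT overlapped.

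The size of the H19 response itself was compared between lines. It was smaller in MUT than in WT by 1.34 on the log2 scale (log2 difference -1.34, SE 0.302, edgeR adjusted p = 0.0362), a contrast in which 1% of all genes passed the test and in which H19 was the 1 member of 9 that did. This call was close to the threshold: it was lost under 12 of 25 alternative settings, with adjusted p-values from 0.000583 to 0.109, and 9 of those left out a single treated or untreated library of WT or a treated library of MUT. With untreated MUT replicate 2 left out, the library with the highest untreated H19 of that line, the log2 difference was -1.11. The H19 response of WT exceeded that of EV by 0.57 (SE 0.308, edgeR adjusted p = 0.567) and that of MUT was below that of EV by 0.77 (log2 difference -0.77, SE 0.289, edgeR adjusted p = 0.212), and neither difference passed the test. The untreated WT libraries enter both the untreated line comparison and the difference of responses.

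IGF2, the paternally expressed insulin-like growth factor encoded next to H19 (chr11:2129112-2158659, minus strand), rose in EV and MUT. In EV it went from 8.59, 9.64 and 8.06 CPM to 16.6, 19.7 and 15.9 CPM, a log2 fold change of 0.98 (SE 0.167, edgeR adjusted p = 6.98e-05). In MUT it went from 7.57, 9.25 and 5.43 CPM to 15.7, 13.0 and 12.9 CPM, a log2 fold change of 0.91 (SE 0.169, edgeR adjusted p = 0.000146). Neither line had overlapping libraries. In WT the untreated libraries were already at 17.5, 13.7 and 17.8 CPM and the treated ones at 21.7, 16.2 and 21.8 CPM, so the groups overlapped, and the log2 fold change of 0.29 (SE 0.157) did not pass the test (edgeR adjusted p = 0.134). The differences between the IGF2 responses were not past the threshold either, at -0.69 for WT minus EV (edgeR adjusted p = 0.301) and 0.62 for MUT minus WT (edgeR adjusted p = 0.197).

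Before treatment, IGF2 was ordered opposite to H19 between WT and the other lines. Untreated WT held 16.3 ± 2.26 CPM, against 8.76 ± 0.807 in EV and 7.41 ± 1.92 in MUT (SD, n = 3). WT exceeded EV by 0.90 on the log2 scale (SE 0.167, edgeR adjusted p = 0.00119), and MUT lay below WT, at a log2 fold change of -1.14 (SE 0.169, edgeR adjusted p = 9.87e-05), both without overlap. EV and MUT overlapped and did not differ past the threshold (log2 difference -0.25, edgeR adjusted p = 0.361). In treated cells MUT was below WT (log2 fold change -0.52, SE 0.157, edgeR adjusted p = 0.0236), a call lost without treated MUT replicate 2 or 3 or treated WT replicate 1 or 3 (adjusted p between 0.081 and 0.0981).

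The number of H19 counts per IGF2 count in the same library is free of the scaling between libraries. On the log2 scale it averaged -3.27 ± 0.236 in untreated WT, -1.54 ± 0.317 in untreated EV and -0.90 ± 0.213 in untreated MUT (SD, n = 3). The 3 lines did not overlap in this ratio before treatment, with WT lowest and MUT highest. After cytarabine it was -0.37 ± 0.261 in WT, 0.07 ± 0.284 in EV and -0.02 ± 0.027 in MUT, so that all 9 treated libraries lay above all 9 untreated ones. EV then overlapped both other lines, and MUT and WT lay close to each other without overlap. In the canonical transcripts used for length, H19 has 1106 exonic bases and IGF2 5580. On these lengths the level per kb was higher for H19 than for IGF2 in all groups but untreated WT. There it was 1.56 CPM per kb for H19 and 2.92 for IGF2. Lengths of other transcripts were not used, so this order holds for these lengths only. Across the 18 libraries the log2 CPM of both genes correlated at r = 0.509, and at r = 0.651 after the group means were removed. These values are descriptions, since the libraries share lines, treatment and depth.

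**Figure D2:**
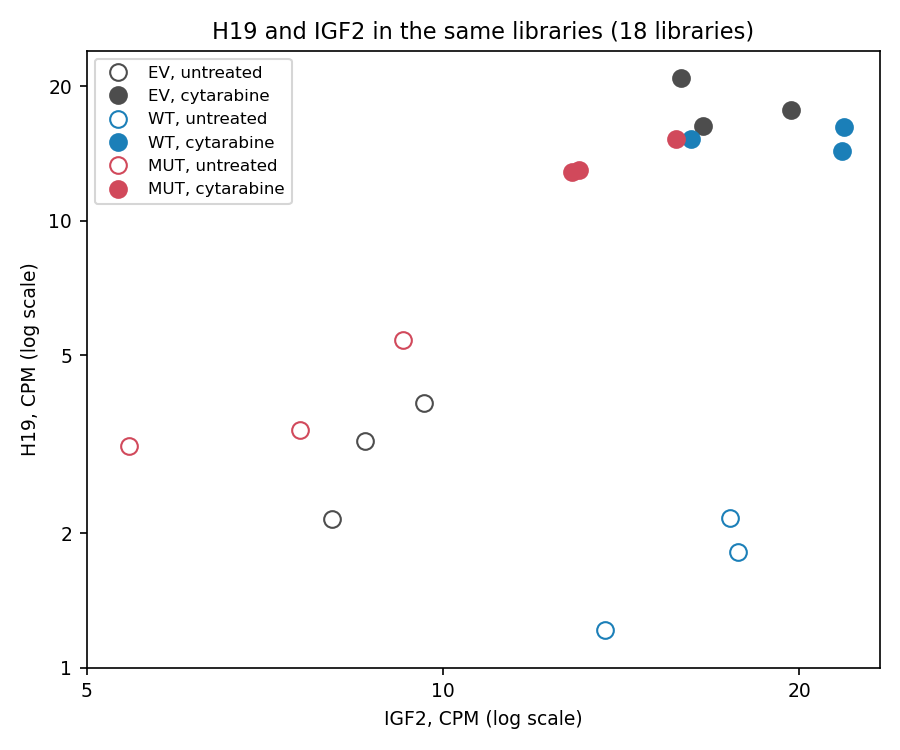
H19 against IGF2, both in CPM on log scales, in the 18 libraries, coloured by line, open when untreated and filled after cytarabine. The untreated WT libraries (IGF2 13.7 to 17.8 CPM, H19 1.22 to 2.16 CPM) sit apart at the lower right, and the treated libraries of the 3 lines lie together above 12 CPM of H19.

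Over all members, cytarabine moved 7 of the 9 tested genes in EV, 6 higher and 1 lower, while 49.1% of all tested genes were called in that line. In WT 5 members were called, 4 higher and 1 lower, against 49% of all genes. In MUT 5 were called, 4 higher and 1 lower, against 56.3%. The shares in WT and MUT were near those of all genes. MEG3 passed the filter only through its counts in treated WT, and without it the counts were 6 of 8 in EV, 4 of 8 in WT and 5 of 8 in MUT. H19 and SGCE were higher and GRB10 was lower in all 3 lines, where 18.9% of all tested genes were higher and 16.4% lower in all 3. The median log2 fold change of the tested members was 0.50 in EV, 0.22 in WT and 0.35 in MUT, beside medians of 0.05, 0.03 and 0.05 for all genes. MEG3 is included in these member medians.

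**Figure D3:**
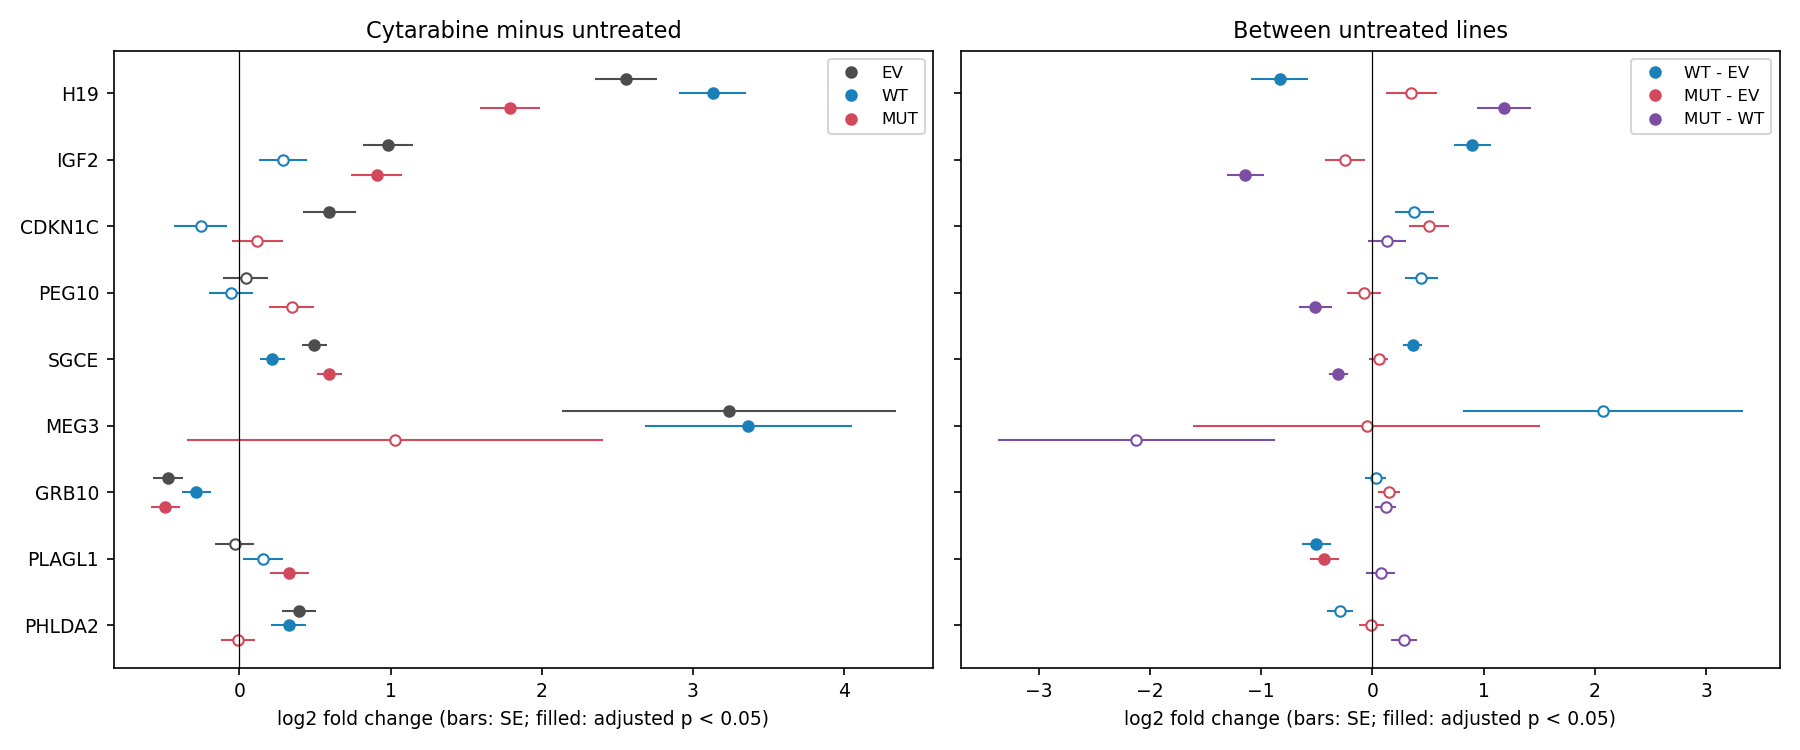
Log2 fold changes (points) with their SE (bars) of the 9 tested members, for cytarabine minus untreated within each line on the left and between untreated lines on the right, filled where the adjusted p is under 0.05. For cytarabine, on the left, H19 lies farthest from 0 among the members other than MEG3 and GRB10 is on the negative side in all 3 lines, and the wide bars of MEG3 rest on 0 to 32 counts per library. MEG3 passed the filter on low counts only through treated WT, so its filled WT point is not support for a rise.

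Between untreated lines, 4 of the 9 members were called for WT against EV, 2 higher and 2 lower, where 11.7% of all genes were called, 4.3% higher and 7.36% lower. For MUT against WT 4 members were called, H19 higher and IGF2, SGCE and PEG10 lower, where 21.2% of all genes were called, 11.7% higher and 9.54% lower. For MUT against EV the 1 call was PLAGL1, which was lower, where 19.9% of all genes were called, 9.88% higher and 10% lower. In treated cells 2 members were called between WT and EV, where 16.5% of all genes were called. Between treated MUT and EV 1 member was called (14% of all genes), and between treated MUT and WT 3 were (19.8%). Without MEG3, which passed the filter only through treated WT, 1 of 8 members was called between treated WT and EV, 1 between MUT and EV, and 2 between MUT and WT. For the differences of the cytarabine effect WT minus EV and MUT minus EV no member was called, where 0.285% and 0.214% of all genes were. The unadjusted edgeR p was under 0.05 for IGF2, CDKN1C and SGCE in the first and for H19 and PHLDA2 in the second. The share of all genes under that unadjusted value was not counted, so no excess among the members can be read from it. DESeq2 called 0 members in both contrasts, but it gave no adjusted p for H19, CDKN1C and PEG10 in MUT minus EV.

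CDKN1C and PHLDA2 lie in the neighbouring imprinted domain of chromosome 11. CDKN1C encodes the cyclin-dependent kinase inhibitor p57 (chr11:2883213-2885774, minus strand). It rose in EV from 4.09, 4.44 and 4.06 CPM to 6.65, 5.81 and 6.54 CPM, a log2 fold change of 0.60 (SE 0.176, edgeR adjusted p = 0.00859). In WT it was at 5.59, 6.14 and 4.62 CPM untreated and 4.31, 4.70 and 4.69 CPM treated, and in MUT at 4.92, 5.60 and 7.42 CPM untreated and 7.43, 5.03 and 6.97 CPM treated. Both of these pairs of groups overlapped, and the log2 differences of -0.26 in WT and 0.12 in MUT did not pass the test (edgeR adjusted p = 0.236 and 0.572). Treated MUT exceeded treated WT by 0.51 (SE 0.171, edgeR adjusted p = 0.0433), a call lost in 13 of 25 alternatives, among them those without treated MUT replicate 1 or 3 or without any 1 treated WT library (adjusted p between 0.0892 and 0.187). For the response of WT minus that of EV, the log2 difference was -0.85 (SE 0.248, edgeR adjusted p = 0.226).

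PHLDA2 is a small maternally expressed protein known for restraining placental growth (chr11:2928273-2929456, minus strand). It rose in EV from 32.2, 34.8 and 31.4 CPM to 43.0, 41.4 and 44.7 CPM (log2 fold change 0.39, SE 0.113, edgeR adjusted p = 0.00728). It rose in WT from 27.3, 25.7 and 27.4 CPM to 30.9, 33.0 and 37.0 CPM (log2 fold change 0.33, SE 0.115, edgeR adjusted p = 0.0237), and the adjusted p was 0.076 with the authors' scaling factors, 0.116 without treated WT replicate 3 and 0.0813 without untreated WT replicate 2. In MUT the untreated libraries spread from 25.9 to 40.7 CPM around the treated ones, at 30.5 to 33.4 CPM, with a log2 difference of -0.01 (edgeR adjusted p = 0.945). Treated EV was the highest group, and both other treated lines were below it, WT by a log2 fold change of -0.36 (edgeR adjusted p = 0.0341) and MUT by -0.41 (edgeR adjusted p = 0.0182). The WT call was lost without any 1 treated EV library or without treated WT replicate 1 or 2 (adjusted p between 0.0503 and 0.145) or with no filter on low counts (0.053), and the MUT call without treated EV replicate 3 or treated MUT replicate 1 (0.0704 and 0.0769).

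The table held 31 other genes that start within 500 kb of H19, IGF2, CDKN1C or PHLDA2, and 17 of them were tested. In EV 4 were higher and 4 lower, in WT 2 and 2, and in MUT 3 and 6, where 26.1%, 26.3% and 30.4% of all genes were higher and 22.9%, 22.7% and 25.9% lower. SLC22A18, an imprinted transporter gene between CDKN1C and PHLDA2, had log2 fold changes of 1.54 in EV (SE 0.173), 1.00 in WT (SE 0.169) and 1.18 in MUT (SE 0.169). TSSC4, in the same domain, had log2 fold changes of -1.06 in EV (SE 0.130), -0.85 in WT (SE 0.130) and -1.18 in MUT (SE 0.129). All 6 of these changes passed the edgeR test. KCNQ1OT1, the long non-coding RNA that starts at the control region of the CDKN1C domain, averaged 4.89 ± 0.808 CPM in EV before and 5.20 ± 0.928 CPM after treatment (SD, n = 3) and was not called in any line (edgeR adjusted p = 0.808 in EV, 0.422 in WT and 0.433 in MUT).

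**Figure D4:**
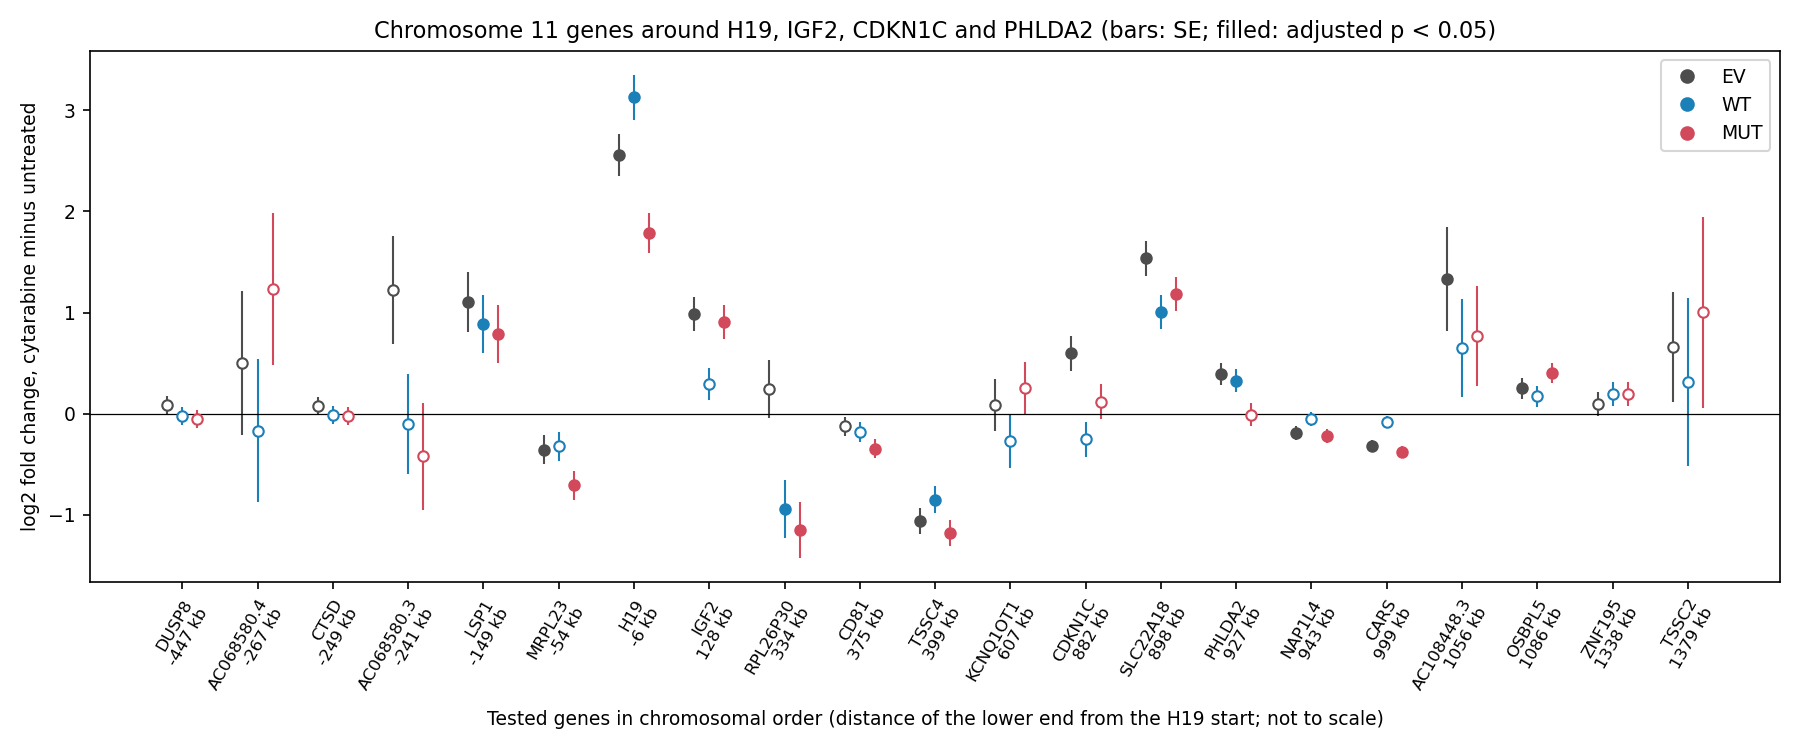
Log2 fold change of cytarabine minus untreated (points) with its SE (bars) for the tested genes around H19, IGF2, CDKN1C and PHLDA2, in chromosomal order with the distance from the H19 start in kb, by line and filled where the adjusted p is under 0.05. H19 stands highest in each line, SLC22A18 is called higher and TSSC4 lower in all 3, and adjacent genes differ in direction.

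SGCE and PEG10 are paternally expressed genes that start head to head on chromosome 7 and overlap in the table's coordinates (SGCE at chr7:94524204-94656573 on the minus strand, PEG10 at chr7:94656325-94669696 on the plus strand). Strand use in the counting is not given in the sources used here, so reads from the overlap could be assigned to either. SGCE, which encodes epsilon-sarcoglycan, rose in all 3 lines. It went from 50.9, 49.4 and 52.4 CPM to 74.1, 66.9 and 74.4 CPM in EV (log2 fold change 0.50, SE 0.0836, edgeR adjusted p = 6.44e-05). It went from 56.5, 43.9 and 58.1 CPM to 79.7, 79.7 and 80.3 CPM in MUT (log2 fold change 0.59, SE 0.083, edgeR adjusted p = 5.74e-06). The rise in WT was smaller, from 64.0, 67.3 and 65.0 CPM to 78.9, 71.2 and 77.9 CPM (log2 fold change 0.22, SE 0.0823, edgeR adjusted p = 0.0354), and the call was lost in 7 of 25 alternatives, with an adjusted p of 0.149 under the authors' scaling factors and 0.0548 to 0.117 without treated WT replicate 1 or 3 or any 1 untreated WT library. No line had overlapping libraries. Untreated SGCE was higher in WT than in EV by 0.36 (edgeR adjusted p = 0.00698) and lower in MUT than in WT by a log2 fold change of -0.31 (edgeR adjusted p = 0.0129), which was -0.16 (adjusted p = 0.111) without untreated MUT replicate 2 and -0.25 (adjusted p = 0.0896) without untreated WT replicate 2. When only the groups compared were fitted, its adjusted p was 0.138.

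PEG10, a gene derived from a retrotransposon, was not called for cytarabine in any line. It was at 7.65, 7.77 and 8.24 CPM in untreated EV and 8.80, 7.12 and 8.34 CPM in treated EV, which overlapped. Untreated WT held 10.6, 9.26 and 12.3 CPM and treated WT 8.40, 10.2 and 12.4 CPM, which overlapped too. In MUT it was at 8.68, 7.23 and 6.51 CPM untreated and 9.80, 9.77 and 9.02 CPM treated. Those MUT libraries did not overlap, and the log2 difference of 0.35 (SE 0.149) had an edgeR adjusted p of 0.0539. Untreated WT was above untreated MUT without overlap (MUT against WT, log2 fold change -0.51, SE 0.149, edgeR adjusted p = 0.0183), and the adjusted p was 0.0506 and 0.086 without untreated MUT replicate 2 or 3 and 0.0999 without untreated WT replicate 3, and 0.103 when only the groups compared were fitted.

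GRB10 encodes an adaptor that binds the insulin and IGF1 receptors and dampens their signal (chr7:50590063-50793463, minus strand). It was the 1 tested member that fell with cytarabine, and it did so in all 3 lines without overlap. In EV it fell from 80.2, 77.8 and 83.9 CPM to 55.1, 60.6 and 58.7 CPM (log2 fold change -0.47, SE 0.0964, edgeR adjusted p = 0.000445). In WT it fell from 83.8, 79.5 and 83.4 CPM to 65.9, 69.2 and 67.5 CPM (log2 fold change -0.28, SE 0.0955, edgeR adjusted p = 0.0185), a call lost without treated WT replicate 1 or untreated WT replicate 1 or 3 (adjusted p between 0.0519 and 0.0609). In MUT it fell from 82.9, 110.2 and 75.3 CPM to 64.7, 63.4 and 62.8 CPM (log2 fold change -0.49, SE 0.0955, edgeR adjusted p = 0.000232). Untreated MUT replicate 2 was the highest library for GRB10 and the lowest of its group for SGCE. No line comparison was called for GRB10 in either treatment.

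PLAGL1 is a paternally expressed zinc finger transcription factor (chr6:143940300-144064600, minus strand), and the non-coding gene HYMAI lies within it, so reads could be assigned to either. Untreated EV held 79.6, 91.3 and 92.0 CPM and untreated WT 63.3, 64.1 and 57.8 CPM, a log2 fold change of -0.51 for WT against EV (SE 0.130, edgeR adjusted p = 0.0145) without overlap, and the call was lost without untreated EV replicate 2 or 3 or untreated WT replicate 3 (adjusted p between 0.0598 and 0.0707). Untreated MUT held 83.9, 52.7 and 57.8 CPM, so 1 library lay with EV and the other 2 below untreated EV. MUT against EV was at -0.43 (edgeR adjusted p = 0.0243) and at -0.28 (adjusted p = 0.106) without untreated MUT replicate 2, and was also lost without untreated MUT replicate 3 or untreated EV replicate 2 or 3 and when only the groups compared were fitted (adjusted p = 0.159). PLAGL1 rose with cytarabine in MUT to 75.9, 86.2 and 82.8 CPM (log2 fold change 0.33, SE 0.130, edgeR adjusted p = 0.0365) with overlap. Without untreated MUT replicate 2 that value was 0.17 (adjusted p = 0.255), without untreated MUT replicate 3 it was 0.22 (adjusted p = 0.17), and 9 of 25 alternatives lost the call. In EV and WT it was not called (log2 differences -0.03 and 0.16).

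MEG3 and MEST were near the limit of detection. MEG3 is a maternally expressed long non-coding RNA of chromosome 14 (chr14:100779410-100861032, plus strand). Treated WT held 32, 20 and 17 counts of it, treated EV 4, 7 and 3, and treated MUT 0, 2 and 1, while no untreated library held more than 4. The treated WT libraries were thus above all others. Because treated WT alone carried MEG3 over the filter, no test of MEG3 is given for comparisons with that group. From the summed counts, scaled by library size, the ratio of treated WT to untreated WT was 10.9 (69 against 6 counts). The ratio of treated WT to treated EV was 4.86 (69 against 14 counts) and to treated MUT 25.2 (69 against 3 counts). These ratios describe the counts and are not support for a difference. In EV the ratio of treated to untreated was 11.8 (14 against 1 count, 95% exact interval 1.8 to 499, counting error only). Its edgeR adjusted p was 0.02. The call in EV was lost without treated EV replicate 2 or untreated EV replicate 2 or 3 (adjusted p between 0.0681 and 0.0792). DLK1, the paternally expressed gene of the same domain, had at most 6 counts in a library and was not tested.

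MEST, a paternally expressed gene of the hydrolase fold (chr7:130486171-130506466, plus strand), had 58 counts in all and did not pass the filter. Treated EV held 9, 6 and 9 counts against 2, 0 and 1 untreated, and treated MUT 10, 3 and 5 against 1, 0 and 0. Treated WT held 3, 5 and 4 counts and untreated WT none. The ratio was 3.79 when untreated WT was set at 3 counts over the group, with the counting error of treated WT left out. In each line every treated library lay above the untreated ones. From the summed counts the ratio was 6.75 in EV (95% exact interval 2.05 to 35) and 14.4 in MUT (2.28 to 601), again with counting error only and without a test across libraries.

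Levels per kb of exon differed widely among the members. PHLDA2 ranged from 29.1 to 46.8 CPM per kb over the 6 group means, SGCE from 27.3 to 42.8, PLAGL1 from 18.9 to 26.8 and GRB10 from 10.6 to 16.4. H19 ranged from 1.56 in untreated WT to 16.5 in treated EV. IGF2, CDKN1C and PEG10 stayed between 1.33 and 4.14, and MEG3 and MEST at or under 1.79.

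A longer list of imprinted genes was counted beside the members. Of 63 listed genes 42 were tested. In EV 17 were higher and 5 lower, in WT 17 and 4, and in MUT 20 and 4, where 26.1%, 26.3% and 30.4% of all genes were higher and 22.9%, 22.7% and 25.9% lower. The median log2 fold changes of the list were 0.24, 0.20 and 0.39. In all 3 lines 15 were higher, or 35.7% of the list beside 18.9% of all genes, and 2, UBE3A and ZFAT, were lower. MAGEL2, a gene of the Prader-Willi region, had log2 fold changes of 2.05, 1.34 and 1.87 in the EV, WT and MUT lines. Its untreated levels were 2.34, 3.07 and 2.40 CPM. SNRPN, of the same region, rose by 0.56, 0.50 and 0.43 (edgeR adjusted p at most 0.000167). GNAS was not called in any line, and PEG3 fell in EV (log2 fold change -0.46, edgeR adjusted p = 0.00554) and was at -0.21 in WT and -0.26 in MUT, short of the threshold.

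The IGF pathway outside IGF2 was counted likewise, with 10 of 16 listed genes tested. In EV 6 were higher and 1 lower, in WT 5 and 2, and in MUT 5 and 1, where 49.1%, 49% and 56.3% of all genes were called. The list medians were 0.40, 0.32 and 0.52, beside 0.05, 0.03 and 0.05 for all genes. The receptors IGF1R, INSR and IGF2R, of which IGF2R clears IGF2 from the cell surface, were higher in all 3 lines. The log2 fold changes in the EV, WT and MUT lines were 0.33, 0.36 and 0.48 for IGF1R and 0.45, 0.55 and 0.56 for IGF2R. IGF2BP1, an RNA-binding protein known to bind IGF2 and H19 transcripts, rose by 0.99, 0.69 and 0.87, and its relative IGF2BP2 fell by 0.42, 0.30 and 0.37. Before treatment, IGF1R was lower in MUT than in WT (log2 fold change -0.69, edgeR adjusted p = 0.00061) and than in EV (-0.53, edgeR adjusted p = 0.00581).

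Genes that set or keep imprints and DNA methylation were counted in the same way. Of 16 listed genes 13 were tested, with 3 higher and 8 lower in EV, 1 and 7 in WT, and 3 and 5 in MUT. Over all genes 26.1%, 26.3% and 30.4% were higher and 22.9%, 22.7% and 25.9% lower, so the counts in MUT were near those shares. The list medians were -0.47, -0.32 and 0.08, beside 0.05, 0.03 and 0.05 for all genes, so the median in MUT was on the other side of 0. CTCF fell in EV from 98.3 ± 2.29 to 53.7 ± 4.75 CPM (SD, n = 3), and its log2 fold changes were -0.87, -0.95 and -0.80 in EV, WT and MUT (edgeR adjusted p at most 5.18e-07). TRIM28, a corepressor that keeps imprints with zinc finger proteins, had log2 fold changes of -0.71, -0.72 and -0.91 (edgeR adjusted p at most 3.42e-08). UHRF1, DNMT1 and ZNF202 were lower and DNMT3B was higher in all 3 lines. CTCFL, the germline relative of CTCF, differed between untreated lines, at 20.3 ± 0.733 CPM in EV, 5.30 ± 0.170 in WT and 0.512 ± 0.214 in MUT (SD, n = 3), with all 3 pairs past the edgeR threshold (adjusted p at most 2.96e-07). Untreated H19 averaged highest in MUT, then EV, then WT, and untreated IGF2 highest in WT, then EV, then MUT. Treated H19 averaged highest in EV, then WT, then MUT, the order of untreated CTCFL. Whether any of the listed genes bears on the members was not tested.

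**Figure D5:**
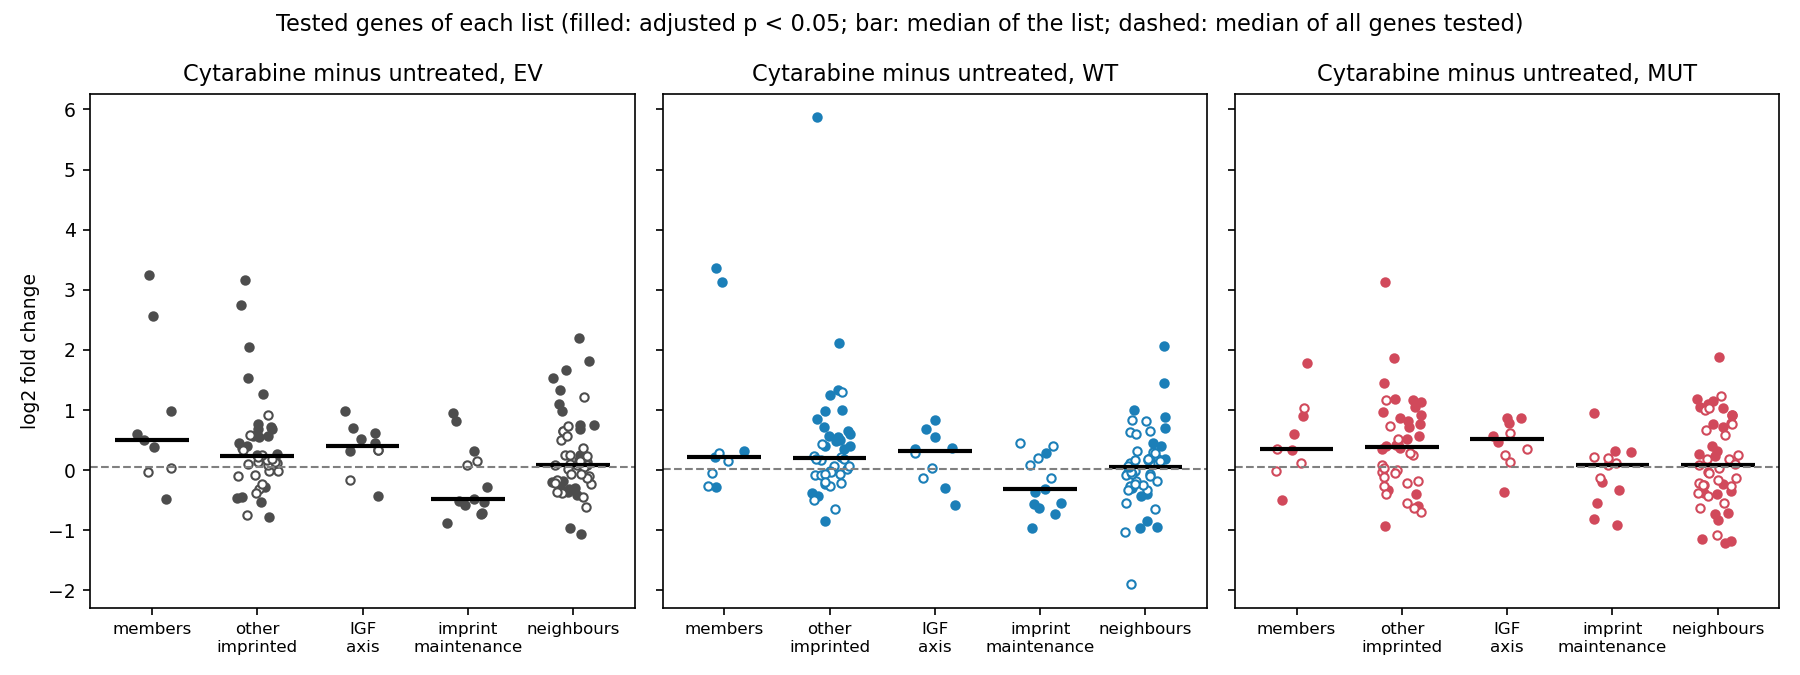
Log2 fold change of cytarabine minus untreated for each tested gene (points, filled where the adjusted p is under 0.05) of the members, the other imprinted genes, the IGF pathway, the imprint maintenance genes and the genes within 500 kb of a member, in the 3 lines, with bars at list medians and a dashed line at the median of all genes. Members and other imprinted genes have medians of 0.20 to 0.50, and the imprint maintenance genes have medians of -0.47, -0.32 and 0.08.

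The genes whose log2 CPM followed H19 most closely over the 18 libraries, among 13681 genes with a mean of at least 1, were STARD10 (r = 0.981), SLC52A1 (r = 0.973), SIRT2 (r = 0.969), TNFRSF14 (r = 0.968) and MPP2 (r = 0.968). STARD10 lies on chromosome 11, and the other 4 are on other chromosomes. Among members the highest correlations with H19 were those of SGCE (r = 0.623) and PHLDA2 (r = 0.604), and GRB10 had r = -0.752. After the group means were removed, the signs were opposite, with r = -0.629 for SGCE, -0.218 for PHLDA2 and 0.526 for GRB10. Within groups SGCE and GRB10 had r = -0.88 with each other, over libraries that include untreated MUT replicate 2. These are descriptions over libraries that share lines, treatment and depth.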

How the data were processed

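RNA was prepared with Direct-zol and NEBNext Ultra kits, per the labels' protocols. The submitters' processing notes name CASAVA, STAR 2.6.1d and hg38; the counting tool and its strand setting are not given in the sources used here. The authors deposited estimated counts per gene symbol (70.4% whole, not normalized) for all 18 libraries. A second deposited table held a normalized signal for 19591 genes, equal to 1 plus a library factor times the estimated count; its factors served as an alternative scaling. No column belonged to another sample. Groups and replicate numbers came from sample titles. The p-values rest on the spread between cultures within groups, estimated jointly over all 18 libraries. They do not measure the spread of the compared lines alone. Counts were rounded, filtered with filterByExpr and scaled by TMM in edgeR 4.0.16 (R 4.3.3). A single quasi-likelihood fit held all 18 libraries and 1 coefficient per group, and 12 contrasts were each adjusted by Benjamini-Hochberg over 18226 genes (threshold 0.05). SE is the absolute log2 fold change over the square root of F. The log2 CPM used a prior count of 2. The fit was tested on simulated data. Exonic lengths are those of Ensembl canonical transcripts (GENCODE).

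Members and gene lists were chosen with earlier results of these data known. All members were named. Of each list up to 3 genes with the largest rise and fall per contrast (mean log2 CPM of at least 1) could be named, besides DNMT3A, IGF2R, IGF1R, IGF2BP1, IGF2BP3, CTCF, CTCFL, DLK1, KCNQ1OT1, SNRPN, PEG3, GNAS, NNAT and DIRAS3; genes shared by all lines were named after their values were seen. Alternatives were edgeR's RLE factors, the authors' factors, no filter, a mean of at least 50 counts, a replicate block, only the groups compared, DESeq2 1.42.0 and leaving out each library.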

Additional observations from a re-analysis of the deposited data

Results flagged for a closer look

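The cytarabine response of 4 of the genes described differed between MUT and WT in the test of the difference itself (edgeR, 18226 genes tested). H19 rose less in MUT than in WT, with a log2 difference of -1.34 (adjusted p = 0.0362), from untreated means of 3.99 CPM in MUT and 1.73 CPM in WT to treated means of 13.7 and 15.3 CPM. BLCAP, an imprinted gene, had a log2 difference of -0.51 (adjusted p = 0.00837), going from 74.1 to 68.8 CPM in MUT and from 72.6 to 95.8 CPM in WT. PPP1R9A, which lies near SGCE and PEG10, had a log2 difference of 0.66 (adjusted p = 0.0272), with untreated levels of 11.2 CPM in MUT and 20.7 CPM in WT and treated levels of 23.3 and 27.3 CPM. GPR1, a receptor gene, had a log2 difference of 0.89 (adjusted p = 0.0331), going from 6.70 to 11.8 CPM in MUT and from 4.85 to 4.63 CPM in WT.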

How the results depend on the processing

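The rises of H19 in the 3 lines, the rise of IGF2 in EV and MUT, the rise of SGCE in EV and MUT and the fall of GRB10 in EV and MUT kept their direction and their call in all 25 alternatives each. With 1 library left out, the number of members called was 3 to 6 (cytarabine in WT), 2 to 6 (WT against EV untreated), 0 to 2 (MUT against EV untreated), 3 to 4 (MUT against WT untreated), 0 to 4 (WT against EV treated), 0 to 2 (MUT against EV treated), 1 to 3 (MUT against WT treated), 0 to 0 (the effect WT minus EV), 0 to 1 (the effect MUT minus EV), 0 to 2 (the effect MUT minus WT). The number of all genes called was then 1411 to 3000 (WT against EV untreated), 2309 to 4405 (MUT against EV untreated), 2807 to 4555 (MUT against WT untreated), 1810 to 4103 (WT against EV treated), 1573 to 3711 (MUT against EV treated), 2345 to 4885 (MUT against WT treated), 12 to 152 (the effect WT minus EV), 8 to 935 (the effect MUT minus EV), 38 to 1235 (the effect MUT minus WT). Under the authors' factors cytarabine in WT had 3 members called. MUT against EV untreated had 2 under RLE factors, the authors' factors, a mean of at least 50 counts and DESeq2. WT against EV treated had 1 with no filter or with a mean of at least 50 counts. Fitting only the groups compared gave 0 members for MUT against EV untreated, 1 for MUT against WT untreated, 5 and 2 for WT and MUT against EV treated, 1 for the effect WT minus EV and 0 for MUT minus WT. Over all genes that fit called 5073, 845 and 1080 between untreated lines (WT against EV, MUT against EV, MUT against WT), 6082 for MUT against WT treated, and 274, 1 and 39 for the effects WT minus EV, MUT minus EV and MUT minus WT. For these effects in the same order DESeq2 called 138, 554 and 803 genes. For the effect WT minus EV the authors' factors gave 32 and no filter 34, for MUT minus EV a mean of at least 50 counts gave 128, and for MUT minus WT RLE factors gave 278 and that mean 375. The cause of these differences was not tested.

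Each change of sign concerned a difference that was short of the threshold in the reported fit. With 1 library left out, the log2 differences ranged for cytarabine in EV PEG10 -0.023 to 0.12, PLAGL1 -0.12 to 0.055, and for cytarabine in WT PEG10 -0.21 to 0.076, and for cytarabine in MUT CDKN1C -0.057 to 0.27, PHLDA2 -0.19 to 0.15. They ranged for MUT against EV untreated PEG10 -0.16 to 0.041, MEG3 -2.04 to 1.98, PHLDA2 -0.18 to 0.16, and for MUT against WT untreated CDKN1C -0.025 to 0.31, GRB10 -0.021 to 0.26, PLAGL1 -0.11 to 0.23. In treated cells they ranged for MUT against EV treated CDKN1C -0.078 to 0.18, PLAGL1 -0.16 to 0.013, and for MUT against WT treated PEG10 -0.24 to 0.041, PHLDA2 -0.11 to 0.019. For differences of the effect they ranged for the effect WT minus EV PEG10 -0.25 to 0.036, MEG3 -1.91 to 0.99, and for the effect MUT minus EV IGF2 -0.29 to 0.067, SGCE -0.058 to 0.13, GRB10 -0.16 to 0.12. Under other settings, PEG10 with cytarabine in EV was -0.033 with the authors' factors, PLAGL1 in EV 0.028 and PHLDA2 in MUT 0.0052 with a mean of at least 50 counts, and PHLDA2 for MUT against EV untreated 0.023 with RLE factors and DESeq2, 0.016 with the authors' factors and 0.012 with that mean. MEG3 had no value with a mean of at least 50 counts, and DESeq2 gave no adjusted p for MEG3 in 6 of the 12 contrasts or for H19, CDKN1C and PEG10 in the effect MUT minus EV.

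The replicate numbers gave no clear pairing of the libraries, but pairing is not excluded. Of 27 pairs with the same number, 7 correlated above 0.1 (range -0.26 to 0.42), and 10 correlated best with their own number. With the replicate block the effect MUT minus EV had 25 genes called, the effect MUT minus WT had 0 members, and H19 in that contrast had a log2 difference of -1.34 (edgeR adjusted p = 0.0526). The block also ended the calls of H19 for WT against EV untreated (adjusted p = 0.0507) and of CDKN1C for MUT against WT treated (0.056).

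With 3 libraries a group and 15.4 to 21.9 M counts each, MEG3 and MEST rest on a few counts per library and their ratios carry wide counting intervals. Small differences, such as SGCE and PHLDA2 in WT, moved across the threshold with a single library. Scaling shifted the median log2 fold change of all genes by no more than the -0.0847 of the authors' factors for cytarabine in MUT. For MUT against WT untreated, 55.1% of called genes were higher with TMM and 65.4% with RLE factors. The same share went from 71.8% to 48.1% for the effect MUT minus EV and from 50.8% to 29.1% for MUT minus WT with RLE factors, and from 50% to 68.8% for WT minus EV with the authors' factors.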
